A study of Mus musculus with 24 samples.

Results

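The genes described here are 10 members of the MHC class I antigen presentation pathway, namely H2-K1, H2-D1, H2-T23, B2m, Tap1, Tap2, Tapbp, Psmb8, Psmb9 and Nlrc5. They were taken by symbol from a table of 47643 gene rows, each was found in 1 row, and all 10 passed the filter on low counts that left 15000 genes. Read counts came from 24 RNA-seq libraries of mouse macrophages, in 8 groups of n = 3. One source of cells was induced pluripotent stem cells (iPSC) and the other was bone marrow, and each was sampled without co-culture at day 0 and in co-culture at days 3, 6 and 12. The series' design text calls the replicates of a time point independent and puts the day 0 controls in the same batch as the co-cultured samples. The same text writes iMicro and BM-Micro beside iMac and BM-Mac as names of the cells. The labels used here give no genotype, strain, treatment or age, and do not name the co-culture partner or how many iPSC lines or animals were used. Beyond that word, nothing says that replicates came from separate cultures or animals, so a p-value measures the spread between these libraries, which may be technical.

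MHC class I molecules show peptides from inside the cell to CD8+ T cells, and receptors of natural killer cells also read them. Cytosolic proteins are cut by the proteasome, the peptides are pumped into the endoplasmic reticulum by the TAP transporter, and tapasin helps to load them onto a heavy chain bound to beta-2 microglobulin. Interferons raise the genes of this pathway in many cell types, in part through the coactivator NLRC5, and exchange the catalytic subunits of the proteasome for inducible ones. In the brain, microglia carry low class I levels at rest and more of it in inflammation.

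Of the 10 members, 8 lie on mouse chromosome 17, in the H2 complex. Their neighbours there are close: the Tap1 and Psmb9 start sites listed by RefSeq lie 226 bases apart on opposite strands. Promoter windows of 300 bases around a RefSeq start site (build GRCm38.p6) were available for 8 members, and 5 follow. H2-K1, H2-D1, Tap1 and H2-T23 are shown because they passed the tests below most often, and B2m because its product joins every heavy chain. Tap2 and Nlrc5 are named only. H2-K1 has 2 windows in the RefSeq table, and the one whose start site lies nearest to the start of the counted gene was taken. Each window is written 5′ to 3′ on the strand of its gene, and capitals mark matches to GAAA, any 2 bases, GAAA (the core of an interferon-stimulated response element), to GGG, any 2 bases, TTCCC (an NF-kB-type site), to TTCNNNGAA (a gamma-activated sequence) or to CCAAT (the CCAAT box), each searched on both strands.
H2-K1 (chr17:34000284-34000583, minus strand): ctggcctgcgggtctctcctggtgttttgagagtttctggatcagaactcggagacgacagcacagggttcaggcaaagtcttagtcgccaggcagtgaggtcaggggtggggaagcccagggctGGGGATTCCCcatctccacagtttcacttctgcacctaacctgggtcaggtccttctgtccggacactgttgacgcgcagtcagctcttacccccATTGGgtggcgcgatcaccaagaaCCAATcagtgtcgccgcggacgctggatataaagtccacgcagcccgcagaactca
H2-D1 (chr17:35262844-35263143, plus strand): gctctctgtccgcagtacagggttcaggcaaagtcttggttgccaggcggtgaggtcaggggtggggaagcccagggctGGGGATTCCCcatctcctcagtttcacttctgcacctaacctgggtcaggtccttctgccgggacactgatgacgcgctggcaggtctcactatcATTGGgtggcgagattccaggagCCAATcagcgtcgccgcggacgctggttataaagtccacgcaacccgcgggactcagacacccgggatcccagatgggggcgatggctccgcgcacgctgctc
H2-T23 (chr17:36032652-36032951, minus strand): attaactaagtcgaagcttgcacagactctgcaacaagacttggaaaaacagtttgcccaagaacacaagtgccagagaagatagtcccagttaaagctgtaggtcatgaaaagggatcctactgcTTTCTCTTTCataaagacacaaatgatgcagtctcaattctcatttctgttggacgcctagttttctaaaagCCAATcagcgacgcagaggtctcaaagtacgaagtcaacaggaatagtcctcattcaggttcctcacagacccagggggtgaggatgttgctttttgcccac
B2m (chr2:122147437-122147736, plus strand): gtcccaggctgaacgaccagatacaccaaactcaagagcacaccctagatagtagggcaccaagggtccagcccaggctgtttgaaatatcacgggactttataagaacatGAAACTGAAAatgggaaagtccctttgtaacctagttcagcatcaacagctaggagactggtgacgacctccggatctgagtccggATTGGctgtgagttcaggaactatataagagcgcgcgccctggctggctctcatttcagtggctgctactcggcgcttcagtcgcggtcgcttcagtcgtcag
Tap1 (chr17:34187306-34187605, plus strand): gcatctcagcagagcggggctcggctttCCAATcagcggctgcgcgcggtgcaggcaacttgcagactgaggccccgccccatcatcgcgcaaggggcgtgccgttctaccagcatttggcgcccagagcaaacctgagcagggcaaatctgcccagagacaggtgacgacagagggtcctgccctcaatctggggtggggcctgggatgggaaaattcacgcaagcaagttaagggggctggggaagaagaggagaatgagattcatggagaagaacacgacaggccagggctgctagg

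The H2-K1 and H2-D1 windows both hold GGGGATTCCC, at -125 in H2-K1 and -171 in H2-D1 from the start site, and 1.75% of all 32851 windows of this length hold a match to this NF-kB-type pattern. A match to the interferon-stimulated response element core stood at -139 in the B2m window and at -124 in the H2-T23 window, against 3.44% of all windows. Psmb8, whose window is not printed, had a TTCNNNGAA match at -97, which 8.3% of windows hold. The CCAAT letters were in 7 of the 8 windows and in 37.4% of all. No match to another overlapped. The Tap1 and Psmb9 windows share 275 bases, so the Tap1 window shown is also most of that of Psmb9. Their CCAAT matches, at -222 in Tap1 and at -8 in Psmb9, are the same bases, counted once for each gene. These matches describe the letters of the C57BL/6J reference and say nothing of whether a factor binds there. Only these patterns were searched, so a window with no match may still hold a looser form of an element.

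Depth was 5839316 to 11805478 counts a library, with 15357 to 18321 genes detected. Levels are CPM, the count of a gene relative to the TMM-scaled total of its library, and changes are log2 fold changes with standard error (SE) from edgeR's quasi-likelihood test, with Benjamini-Hochberg adjustment over the 15000 genes and calls below 0.05. All 12 macrophage markers looked at were detected in every group. Their summed level was lowest in iPSC-derived day 0 libraries, at 7800.0 to 10600.0 CPM, against 41900.0 to 44700.0 CPM in bone marrow-derived day 0 libraries. It was 25500.0 to 30700.0 against 33600.0 to 36600.0 CPM at day 3, 11700.0 to 17200.0 against 29900.0 to 31900.0 at day 6, and 17100.0 to 36100.0 against 28500.0 to 33500.0 at day 12. The day 0 gap was not shared by all markers. Csf1r, Adgre1, Itgam and Mertk were among those called lower in iPSC-derived cells. Ptprc, Cd68 and C1qa were not called, and Fcgr1 was higher (0.62 ± 0.18). The part of the summed level in the results on class I genes was not tested. In bulk RNA, fewer cells of a type and less RNA per cell cannot be told apart. Day 0 and later groups differ in both time and co-culture, and the 3 changes from day 0 within a source share the same day 0 libraries.

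Class I genes rose in bone marrow-derived macrophages after co-culture began, and few did so in iPSC-derived macrophages. At day 3 against day 0, 3 of 10 members rose and 0 fell in iPSC-derived cells (median log2 fold change of the 10, 0.33; of all genes tested, 0.04; 11.2% higher and 8.14% lower among all genes tested). The bone marrow-derived cells had 9 of 10 higher and 0 lower (median 1.13; all genes, 0.04; 11.9% higher and 6.61% lower among all genes). At day 6, 0 of 10 rose and 1 fell in iPSC-derived cells (median -0.18; 14.3% higher and 11% lower among all genes), and 6 of 10 rose and 0 fell in bone marrow-derived cells (median 0.99; 12.7% higher and 6.89% lower among all genes). By day 12, 1 rose and 2 fell in iPSC-derived cells (14% higher and 10.7% lower among all genes), and 5 rose and 1 fell in bone marrow-derived cells (14.7% higher and 9.08% lower among all genes). Between day 3 and day 12, 0 rose and 3 fell in each source, where 4.07% higher and 4.82% lower of all genes were called in iPSC-derived and 4.2% higher and 4.25% lower in bone marrow-derived cells. The shares in iPSC-derived cells at days 6 and 12 were thus near those of all genes.

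Over the 8 groups, the highest mean was that of bone marrow-derived day 3 cells for 9 members, and for Nlrc5 that of bone marrow-derived day 6 cells. The lowest mean was that of iPSC-derived day 12 cells for H2-K1, H2-D1, Psmb9 and Nlrc5, of iPSC-derived day 6 cells for H2-T23 and Psmb8, of iPSC-derived day 0 cells for Tap2 and Tapbp, and of bone marrow-derived day 0 cells for B2m and Tap1. Within iPSC-derived cells the highest group mean was 1.23 times the lowest for Tap2 and 2.16 times for H2-D1, the ends of the range over members. Within bone marrow-derived cells it was 1.32 times for Tapbp and 4.95 times for Tap1. The plot of levels by day shows the bone marrow-derived points of most members parting from the iPSC-derived ones after day 0.

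**Figure D1:**
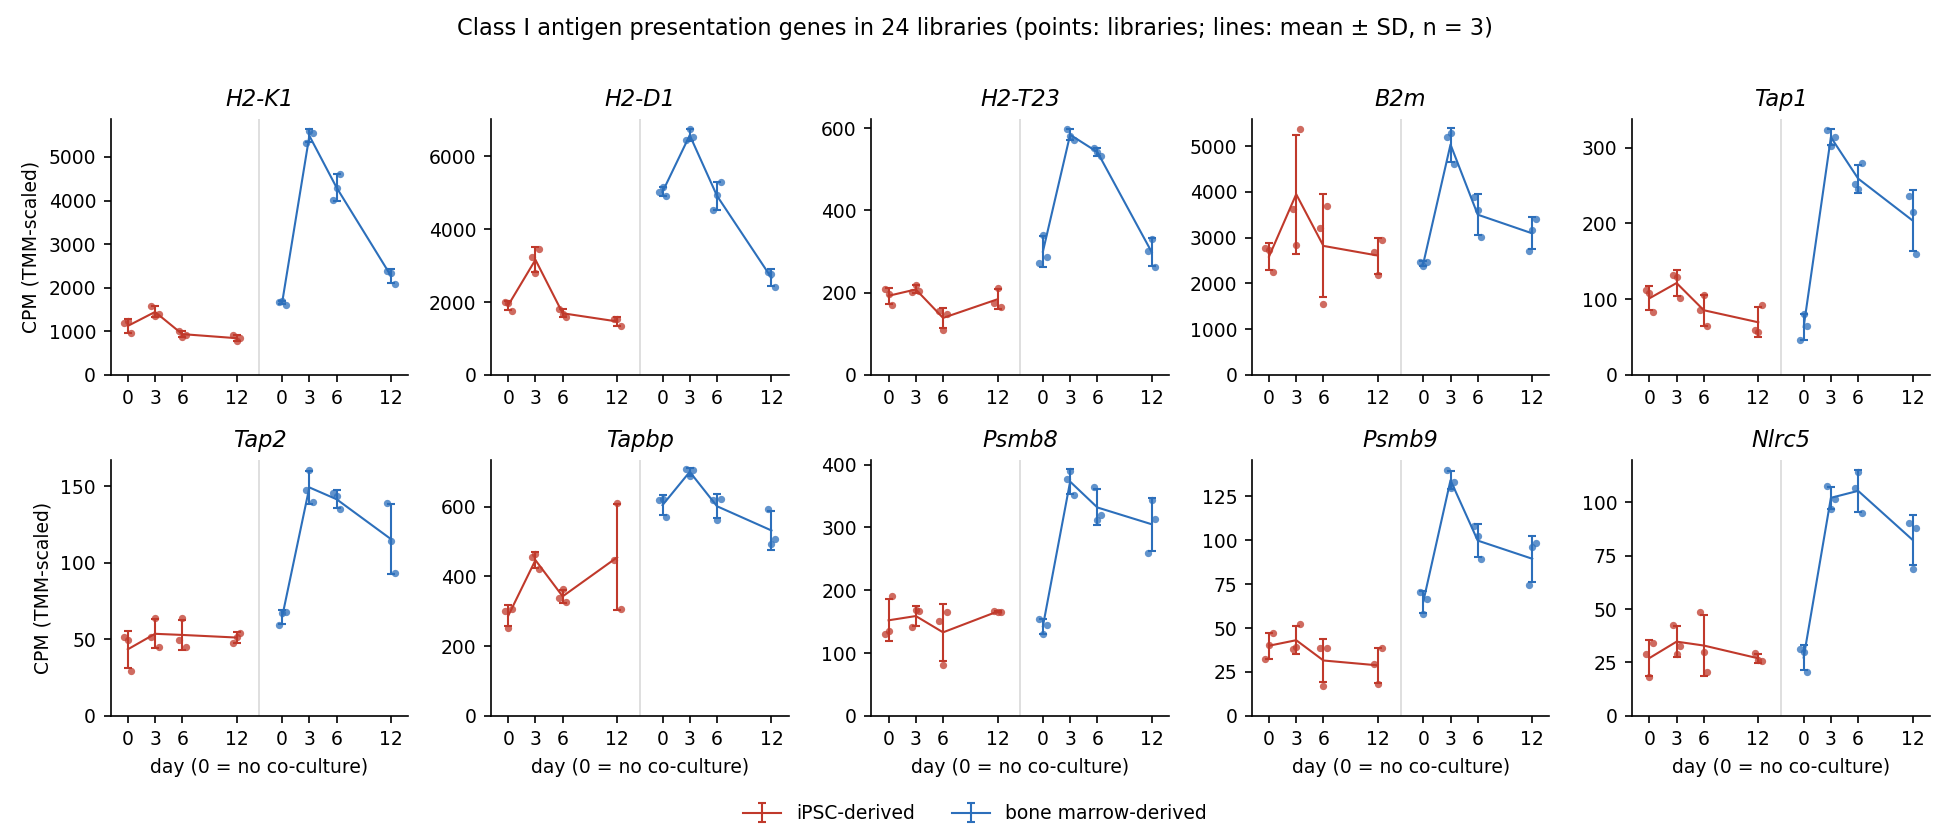
Levels of the 10 class I members by day of co-culture, 1 panel a gene, in TMM-scaled CPM on the vertical axis and days on the horizontal axis, with 1 point a library and lines through the group means of 3 libraries for iPSC-derived and bone marrow-derived macrophages. H2-K1 and Tap1 of bone marrow-derived cells stand highest at day 3, at means of 5486 and 314 CPM.

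The heavy chains carry the peptide groove. H2-K1 (chromosome 17, 33996017 to 34000333, minus strand, mm10) encodes the classical heavy chain K. In iPSC-derived cells H2-K1 had 1183, 1235 and 950.0 CPM at day 0, 1587, 1348 and 1396 CPM at day 3, 1012, 872 and 919.8 CPM at day 6, and 912, 772 and 838 CPM at day 12. The bone marrow-derived libraries had 1675, 1686 and 1610.0 CPM at day 0, 5318, 5600.0 and 5539 CPM at day 3, 4005, 4278 and 4606 CPM at day 6, and 2375, 2344 and 2084 CPM at day 12. Every bone marrow-derived library was above every iPSC-derived one of any day, and in bone marrow-derived cells the 4 days did not overlap. H2-K1 rose in bone marrow-derived cells by 1.73 ± 0.11 log2 units at day 3 (SE, edgeR adjusted p = 1.2e-10), 1.38 ± 0.11 at day 6 and 0.45 ± 0.11 at day 12. In iPSC-derived cells it rose by 0.36 ± 0.11 log2 units at day 3 (edgeR adjusted p = 0.023) and fell at day 12 (-0.42 ± 0.11, adjusted p = 0.0077). These 2 iPSC calls are small: without day 3 replicate 1 the first was 0.30, adjusted p = 0.11, without day 0 replicate 3 it was 0.26, adjusted p = 0.12, and without day 0 replicate 2 the second was -0.35, adjusted p = 0.051. In a fit of only the 6 libraries compared, neither passed (adjusted p = 0.11 and 0.14), nor with no filter on low counts (0.064 and 0.059). With no scaling factors the day 3 change was 0.17 and not called (adjusted p = 0.35). Without day 0 replicate 3, a day 6 fall was called (-0.37, adjusted p = 0.015), which did not pass with all libraries (-0.26 ± 0.11, adjusted p = 0.086).

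H2-D1 (chromosome 17, 35262730 to 35267499, plus strand) is the other classical heavy chain. In iPSC-derived cells H2-D1 had 2004, 1965 and 1767 CPM at day 0, 3233, 2785 and 3463 CPM at day 3, 1812, 1681 and 1581 CPM at day 6, and 1521, 1543 and 1334 CPM at day 12. Bone marrow-derived macrophages held 5021, 5147 and 4906 CPM at day 0, 6444, 6763 and 6536 CPM at day 3, 4525, 4933 and 5295 CPM at day 6, and 2834, 2762 and 2400.0 CPM at day 12. The bone marrow-derived day 3 libraries were the highest of all, and the day 12 ones lay below day 0 with no overlap, unlike those of H2-K1. H2-D1 rose in bone marrow-derived cells at day 3 (0.39 ± 0.11 SE, edgeR adjusted p = 0.011), did not pass at day 6 (-0.03 ± 0.11) and fell at day 12 (-0.91 ± 0.11 SE, edgeR adjusted p = 7.4e-07). In iPSC-derived cells it rose at day 3 (0.72 ± 0.11 SE, edgeR adjusted p = 2.2e-05) and fell at day 12 (-0.38 ± 0.11 SE, edgeR adjusted p = 0.010), a fall whose adjusted p was 0.14 in a fit of only the libraries compared and 0.082 with no filter on low counts. Both H2-K1 and H2-D1 fell between day 3 and day 12, in iPSC-derived cells by 0.78 ± 0.11 and 1.11 ± 0.11 log2 units and in bone marrow-derived cells by 1.27 ± 0.11 and 1.30 ± 0.11.

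H2-T23 (chromosome 17, 36029773 to 36032855, minus strand) encodes Qa-1, a non-classical heavy chain that presents a narrow set of peptides and is seen by natural killer cell receptors. In iPSC-derived cells H2-T23 had 209, 197 and 170.2 CPM at day 0, 201, 219 and 204 CPM at day 3, 156, 110.1 and 149 CPM at day 6, and 175, 211 and 165 CPM at day 12. Bone marrow-derived macrophages had 271, 341 and 287 CPM at day 0, 598, 581 and 572 CPM at day 3, 550.5, 541 and 533 CPM at day 6, and 301, 329.9 and 262 CPM at day 12. The day 3 and day 6 bone marrow-derived libraries lay above all others and did not overlap with day 0 or day 12. H2-T23 rose in bone marrow-derived cells at day 3 (0.96 ± 0.14 SE, edgeR adjusted p = 1.1e-05) and day 6 (0.85 ± 0.14), and at day 12 stood at -0.01 ± 0.14 and did not pass. In iPSC-derived cells it fell at day 6 only among the 3 days (-0.47 ± 0.14 SE, edgeR adjusted p = 0.012). That call was lost without day 0 replicate 1 (-0.41, adjusted p = 0.061) and without day 6 replicate 2 (-0.33, adjusted p = 0.077), in a fit of only the libraries compared (adjusted p = 0.17) and with no filter on low counts (0.054). Between day 3 and day 12 it fell in bone marrow-derived cells (-0.97 ± 0.14 SE, edgeR adjusted p = 3.7e-05).

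B2m (chromosome 2, 122147686 to 122153083, plus strand) encodes beta-2 microglobulin, the light chain of every class I molecule. Its iPSC-derived libraries held 2243 to 2766 CPM at day 0, 2842 to 5378 at day 3, 1549 to 3696 at day 6 and 2181 to 2958 at day 12. The bone marrow-derived ones held 2372 to 2470.0 CPM at day 0, 4609 to 5294 at day 3, 3009 to 3895 at day 6 and 2718 to 3402 at day 12. At each of the 4 days the sources overlapped, and iPSC-derived day 3 and day 6 libraries were spread widely. Of the 15 comparisons, B2m was called in 1, a rise in bone marrow-derived cells at day 3 (1.05 ± 0.23 SE, edgeR adjusted p = 0.0019). In iPSC-derived cells the day 3 change was 0.61 ± 0.23 (adjusted p = 0.062), and without day 3 replicate 2 it was 0.82, adjusted p = 0.025. With no filter on low counts this change passed (adjusted p = 2.0e-04), as it did with DESeq2 (adjusted p = 0.035). The day 6 change in bone marrow-derived cells (0.53 ± 0.23, adjusted p = 0.11) passed with no filter, with no scaling factors and in a fit of only the libraries compared (adjusted p = 0.0018, 0.045 and 1.1e-04). Their fall from day 3 to day 12 (-0.70 ± 0.23, edgeR adjusted p = 0.058) was not called. It passed with no filter, with DESeq2 and in a fit of only the libraries compared (adjusted p = 1.8e-05, 0.030 and 3.6e-04). With replicate numbers as a block it passed too (edgeR adjusted p = 0.025).

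The peptide transporter is made of TAP1 and TAP2. In iPSC-derived cells Tap1 (chromosome 17, 34187553 to 34197225, plus strand) had 112, 108 and 83 CPM at day 0, 132, 129.7 and 102 CPM at day 3, 85.1, 106 and 65 CPM at day 6, and 58.8, 56.9 and 92.5 CPM at day 12. Bone marrow-derived libraries held 46.2, 79.8 and 64.2 CPM at day 0, 324, 303 and 314 CPM at day 3, 252, 245 and 279.9 CPM at day 6, and 236, 215 and 159.5 CPM at day 12. The bone marrow-derived day 0 libraries lay below the iPSC-derived day 0 ones, and all later bone marrow-derived ones were above every iPSC-derived library. Tap1 rose in bone marrow-derived cells, by 2.31 ± 0.22 log2 units at day 3 (SE, edgeR adjusted p = 2.4e-08), 2.03 ± 0.22 at day 6 and 1.68 ± 0.21 at day 12. These were the largest fitted values of the 10 at each day, within 1 SE of those of Nlrc5 at days 6 and 12. In iPSC-derived cells it did not pass at days 3, 6 and 12 (0.26 ± 0.21, -0.24 ± 0.21 and -0.54 ± 0.21). The day 12 change was called without day 0 replicate 3 (-0.67, adjusted p = 0.036) and without day 12 replicate 3 (-0.80, adjusted p = 0.0071). It fell between day 3 and day 12 in iPSC-derived cells (-0.80 ± 0.21 SE, edgeR adjusted p = 0.016), a call lost without day 3 replicate 1 (-0.73, adjusted p = 0.062) or replicate 2 (-0.75, adjusted p = 0.053), without day 12 replicate 1 (-0.69, adjusted p = 0.082) or replicate 2 (-0.67, adjusted p = 0.089), and in a fit of only the libraries compared (adjusted p = 0.089). In bone marrow-derived cells the change from day 3 to day 12 (-0.62 ± 0.21, edgeR adjusted p = 0.063) was not called. It passed there with no filter on low counts, with DESeq2 and in a fit of only the libraries compared (adjusted p = 0.0096, 0.035 and 0.0040).

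Tap2 (chromosome 17, 34203527 to 34216321, plus strand) encodes the other TAP chain. In iPSC-derived cells Tap2 had 51.7, 49.3 and 29.5 CPM at day 0, 51.8, 63.8 and 45.3 CPM at day 3, 49.5, 64 and 45.1 CPM at day 6, and 47.4, 51.8 and 54.4 CPM at day 12. Bone marrow-derived libraries had 59.2, 67 and 67.8 CPM at day 0, 147, 161 and 139.7 CPM at day 3, 146, 144 and 135 CPM at day 6, and 139, 114 and 93.3 CPM at day 12. The iPSC-derived groups overlapped one another, and bone marrow-derived days 3, 6 and 12 were above both day 0 groups. Tap2 rose in bone marrow-derived cells at day 3 (1.21 ± 0.19 SE, edgeR adjusted p = 3.8e-05), day 6 (1.13 ± 0.19) and day 12 (0.84 ± 0.19). In iPSC-derived cells its changes were 0.30, 0.28 and 0.24 at days 3, 6 and 12, none called.

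Tapbp (chromosome 17, 33915899 to 33929288, plus strand) encodes tapasin, which bridges TAP and the empty heavy chain. In iPSC-derived cells Tapbp had 300.1, 252 and 308 CPM at day 0, 455, 463 and 421 CPM at day 3, 337, 364 and 327 CPM at day 6, and 446, 610.5 and 307 CPM at day 12. The bone marrow-derived libraries had 619.5, 622 and 571 CPM at day 0, 709, 686 and 704 CPM at day 3, 620.0, 561 and 622 CPM at day 6, and 594, 493 and 507 CPM at day 12. In iPSC-derived cells days 3 and 6 stood above day 0 with no overlap. In bone marrow-derived cells the day 3 libraries lay above those of all other days. Tapbp rose in iPSC-derived cells at day 3 (0.64 ± 0.16 SE, edgeR adjusted p = 0.0046) and day 12 (0.66 ± 0.16 SE, edgeR adjusted p = 0.0029). The day 12 libraries were spread from 307 to 610.5 CPM, the change was 0.41 (edgeR adjusted p = 0.032) without replicate 2, and the call was lost in a fit of only the libraries compared (adjusted p = 0.078). Its bone marrow changes were 0.21, -0.01 and -0.19 at days 3, 6 and 12, none called. In a fit of only the libraries compared the day 3 rise passed (edgeR adjusted p = 0.036). The fall from day 3 to day 12 in bone marrow-derived cells (-0.40 ± 0.16) was not called, but passed in such a fit (edgeR adjusted p = 0.012).

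Psmb8 and Psmb9 encode catalytic subunits of the immunoproteasome, the inducible form of the proteasome. In iPSC-derived cells Psmb8 (chromosome 17, 34197721 to 34201454, plus strand) had 129.9, 136 and 191 CPM at day 0, 141, 168 and 168 CPM at day 3, 152, 81.5 and 166 CPM at day 6, and 167, 166 and 166 CPM at day 12. Bone marrow-derived libraries had 154, 129.8 and 144 CPM at day 0, 377, 390.0 and 352 CPM at day 3, 364, 311 and 319.7 CPM at day 6, and 259, 343 and 313 CPM at day 12. At day 0 the 2 sources overlapped, and afterwards every bone marrow-derived library was above every iPSC-derived one. Psmb8 rose in bone marrow-derived cells at day 3 (1.39 ± 0.19 SE, edgeR adjusted p = 6.2e-06), day 6 (1.22 ± 0.19) and day 12 (1.10 ± 0.19), and its iPSC changes of 0.06, -0.19 and 0.13 at days 3, 6 and 12 were not called. Psmb9 (chromosome 17, 34181988 to 34187764, minus strand) held 32.4 to 47.2 CPM at day 0, 38 to 52.1 at day 3, 17.2 to 38.9 at day 6 and 18.4 to 38.4 at day 12 in iPSC-derived cells. Its bone marrow-derived libraries held 58 to 70.5 CPM at day 0, 129.6 to 139.7 at day 3, 89.1 to 108 at day 6 and 74.3 to 98.1 at day 12. Every bone marrow-derived library was above every iPSC-derived one, and the day 3 rise there was called (1.04 ± 0.25 SE, edgeR adjusted p = 0.0034), while those of days 6 and 12 were not (0.62 ± 0.25 and 0.46 ± 0.25). In a fit of only the libraries compared both passed (adjusted p = 0.0015 and 0.028).

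Nlrc5 (chromosome 8, 94472763 to 94527272, plus strand) encodes the transcriptional coactivator of class I genes and lies on another chromosome than the H2 complex. In iPSC-derived cells Nlrc5 had 28.9, 18 and 34.3 CPM at day 0, 42.6, 28.9 and 32.8 CPM at day 3, 48.5, 29.9 and 20.5 CPM at day 6, and 29.3, 26 and 25.5 CPM at day 12. Bone marrow-derived libraries had 31.3, 30.1 and 20.6 CPM at day 0, 108, 97 and 102 CPM at day 3, 107, 114 and 95.1 CPM at day 6, and 90.4, 69 and 87.9 CPM at day 12. The day 0 groups of the sources overlapped, and every later bone marrow-derived library was above all the iPSC-derived libraries. Nlrc5 rose in bone marrow-derived cells at day 3 (1.90 ± 0.25 SE, edgeR adjusted p = 4.9e-06), day 6 (1.95 ± 0.25) and day 12 (1.59 ± 0.25). In iPSC-derived cells its changes were 0.36, 0.28 and -0.01 at days 3, 6 and 12, none called. The plot of changes from day 0 sets the members side by side, with the bone marrow-derived values above the iPSC-derived ones for all but H2-D1 and Tapbp at some days.

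**Figure D2:**
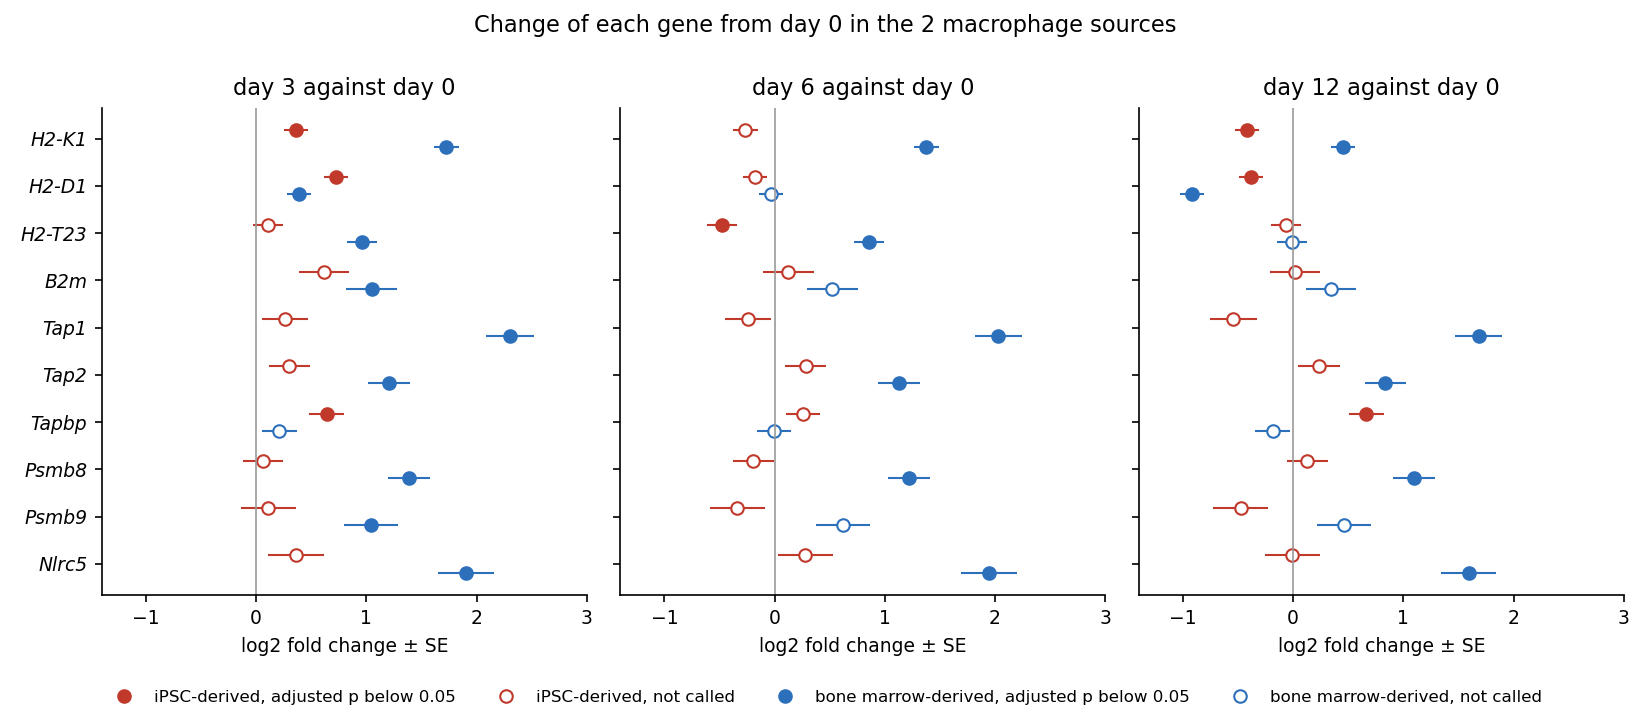
Log2 fold change from day 0 for each class I member at days 3, 6 and 12 in iPSC-derived and bone marrow-derived macrophages, with standard errors from edgeR as bars; filled points passed the test and open ones did not. At day 3 Tap1 of bone marrow-derived cells reaches 2.31 and Tapbp stands at 0.21.

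The difference between the sources was tested at each day. At day 0, 1 of 10 members was higher and 6 were lower in iPSC-derived than in bone marrow-derived cells (18.9% higher and 17.1% lower among all genes tested). The higher one was Tap1 (0.67 ± 0.21 SE, edgeR adjusted p = 0.015), and H2-D1 (-1.39 ± 0.11), Tapbp (-1.08 ± 0.16), H2-T23 (-0.64 ± 0.14) and H2-K1 (-0.56 ± 0.11) were among the lower. The day 0 calls of Tap1, Tap2 and Psmb9 were each lost when single libraries were left out. Tap1 was 0.59, adjusted p = 0.059, without iPSC-derived replicate 1, and 0.51, adjusted p = 0.077, without bone marrow-derived replicate 1. Tap2 (-0.57 ± 0.19 SE, edgeR adjusted p = 0.020) was -0.35, adjusted p = 0.14, without iPSC-derived replicate 3, -0.51, adjusted p = 0.067, without bone marrow-derived replicate 2, and -0.51, adjusted p = 0.064, without bone marrow-derived replicate 3. Psmb9 (-0.70 ± 0.25 SE, edgeR adjusted p = 0.029) lost its call without iPSC-derived replicate 1 or 2 (adjusted p = 0.13 and 0.067) or bone marrow-derived replicate 1, 2 or 3 (0.11, 0.054 and 0.087). With no scaling factors neither Tap2 nor Psmb9 passed (adjusted p = 0.053 and 0.053), and Tap2 did not pass in a fit of only the libraries compared (0.065).

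In co-culture the source difference covered nearly all members. At day 3, 9 of 10 were lower in iPSC-derived than in bone marrow-derived cells (median -1.42; all genes, -0.02; 8.94% higher and 8.92% lower among all genes), at day 6 again 9 (median -1.57, 6.99% higher and 6.23% lower among all genes) and at day 12, 8 (median -1.02, 5.03% higher and 4.74% lower among all genes). B2m did not pass at any day (0.09, -0.35, -0.31 and -0.25 at days 0, 3, 6 and 12), and Tapbp did not pass at day 12 (-0.23 ± 0.16), where it was -0.46, adjusted p = 0.036, without iPSC-derived replicate 2. The lowest values at day 6 were those of H2-K1 (-2.20 ± 0.12 SE, edgeR adjusted p = 4.1e-12) and H2-T23 (-1.97 ± 0.14). At day 12, Psmb9 (-1.64 ± 0.25), Nlrc5 (-1.61 ± 0.25) and Tap1 (-1.55 ± 0.21) had the lowest fitted values. H2-K1 (-1.43 ± 0.11) lay within the SE of each of them. The plot of source differences shows them by day.

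**Figure D3:**
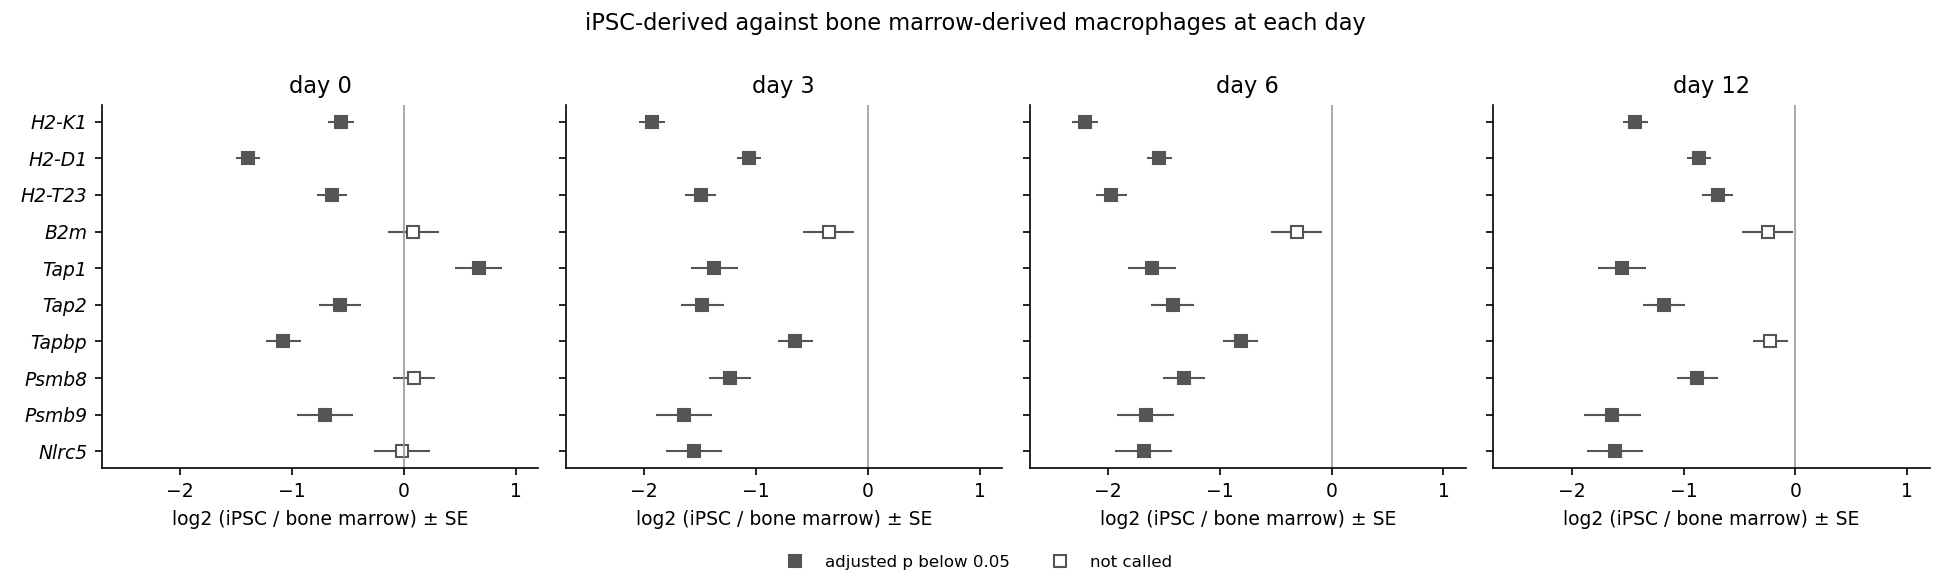
Log2 fold change of iPSC-derived over bone marrow-derived macrophages at days 0, 3, 6 and 12 for each class I member, with standard errors from edgeR. At day 6 all values lie below 0, from -2.20 for H2-K1 to -0.31 for B2m.

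Whether the change from day 0 itself differed between the sources was tested as an interaction, the iPSC change minus the bone marrow change. It was negative and called for 6 of 10 members at day 3 (9.03% higher and 11.5% lower among all genes), for 6 at day 6 (8.62% higher and 11.1% lower among all genes) and for 4 at day 12, where 2 were positive (9.08% higher and 11% lower among all genes). H2-K1, Tap1, Psmb8 and Nlrc5 were called at all 3 days. The largest was Tap1, at -2.04 ± 0.30, -2.27 ± 0.30 and -2.22 ± 0.30 log2 units at days 3, 6 and 12. H2-T23 was called at days 3 and 6 (-0.85 ± 0.19 and -1.33 ± 0.19) and not at day 12 (-0.06 ± 0.19). H2-D1 (0.53 ± 0.15 SE, edgeR adjusted p = 0.013) and Tapbp (0.85 ± 0.22 SE, edgeR adjusted p = 0.0070) were positive at day 12. H2-D1 was 0.46, adjusted p = 0.052, without bone marrow-derived day 12 replicate 3, and with no scaling factors neither gene passed (adjusted p = 0.34 and 0.068). H2-D1 did not pass with no filter on low counts either (adjusted p = 0.054). The day 3 interaction of Tapbp (0.43 ± 0.22) was not called, but passed in a fit of only the groups compared (edgeR adjusted p = 0.044). Tap2 was called at days 3 and 6 (-0.91 ± 0.27 and -0.85 ± 0.27). At day 3 that call was lost without iPSC-derived day 0 replicate 1 (-0.76, adjusted p = 0.055), and at day 6 it was lost without iPSC-derived day 0 replicate 1 or 2 (adjusted p = 0.082 and 0.069) or bone marrow-derived day 0 or day 6 replicate 1 (0.052 and 0.052). At day 12, where it did not pass, it was called without iPSC-derived day 0 replicate 3 (-0.82, adjusted p = 0.016) and with no scaling factors (-0.90, adjusted p = 0.019). Psmb9 (-0.94 ± 0.35, -0.96 ± 0.35 and -0.94 ± 0.35) did not pass at any day (adjusted p = 0.060, 0.056 and 0.062), but passed at day 3 without iPSC-derived day 0 replicate 1 or day 3 replicate 3, at day 6 without iPSC-derived day 0 replicate 1 or day 6 replicate 1 or 3, and at day 12 without iPSC-derived day 0 replicate 1, day 12 replicate 3 or bone marrow-derived day 12 replicate 1, with adjusted p between 0.0192 and 0.0499. With no filter on low counts it passed at all 3 days (adjusted p = 0.020, 0.016 and 0.026), as it did with no scaling factors (0.014, 0.023 and 0.015). DESeq2 called it at all 3 days too (adjusted p = 0.0492, 0.0484 and 0.0499), as did edgeR with the replicate block (0.0245, 0.0181 and 0.0202). At day 3 it also passed in a fit of only the groups compared (edgeR adjusted p = 0.0106).

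Ratios within a library show where members parted, on levels per kilobase of exon. H2-D1 over H2-K1 averaged 1.73 ± 0.137, 2.22 ± 0.251, 1.83 ± 0.108 and 1.77 ± 0.218 at days 0, 3, 6 and 12 in iPSC-derived cells (SD, n = 3 each). The same ratio in bone marrow-derived cells was 3.07 ± 0.0316, 1.21 ± 0.0175, 1.16 ± 0.0127 and 1.19 ± 0.0213. Day 0 lay above the later days with no overlap in bone marrow-derived cells, and in iPSC-derived cells day 3 stood highest. The plot of ratios by day shows this. Psmb8 over the constitutive subunit Psmb5, which it replaces in the immunoproteasome, was 0.345 ± 0.0678, 0.719 ± 0.223, 0.738 ± 0.135 and 0.656 ± 0.0679 at days 0, 3, 6 and 12 in iPSC-derived cells. For bone marrow-derived cells it was 0.782 ± 0.0636, 1.58 ± 0.300, 1.83 ± 0.214 and 1.26 ± 0.195. Each later library was above every day 0 library of its source, although Psmb8 itself was not called in iPSC-derived cells. There Psmb5 fell (-0.90 ± 0.28 at day 3), as did the other constitutive subunits. Psmb9 over Psmb6, the subunit it replaces, was 0.0348 ± 0.00907, 0.0843 ± 0.0155, 0.0738 ± 0.0212 and 0.0730 ± 0.0139 in iPSC-derived cells and 0.209 ± 0.0318, 0.505 ± 0.0793, 0.447 ± 0.0224 and 0.301 ± 0.0152 in bone marrow-derived cells at the same days. Psmb10, the third inducible subunit, over Psmb7 was 2.56 ± 0.537, 3.57 ± 0.568, 3.40 ± 0.260 and 2.80 ± 0.223 in iPSC-derived cells and 4.97 ± 0.222, 4.78 ± 0.504, 4.70 ± 0.667 and 3.87 ± 0.0894 in bone marrow-derived cells. The sources stood far apart in the ratio for Psmb9, and its bone marrow-derived mean was highest at day 3. The denominator differed too. Psmb6 was higher in iPSC-derived than in bone marrow-derived cells at days 0, 3 and 6 (1.89 ± 0.29, 0.99 ± 0.29 and 1.02 ± 0.29 SE), and not called at day 12 (0.39 ± 0.28). At day 0, Psmb5 (1.26 ± 0.28) and Psmb7 (1.02 ± 0.24) were also higher in iPSC-derived cells. Tap1 over Tap2 was 1.65 ± 0.255, 1.57 ± 0.181, 1.11 ± 0.10 and 0.930 ± 0.217 in iPSC-derived cells and 0.672 ± 0.143, 1.46 ± 0.138, 1.27 ± 0.142 and 1.22 ± 0.0715 in bone marrow-derived cells. H2-K1 plus H2-D1 over B2m was 0.391 ± 0.0103, 0.408 ± 0.0958, 0.355 ± 0.170 and 0.299 ± 0.0544 in iPSC-derived cells and 0.914 ± 0.0408, 0.798 ± 0.0629, 0.889 ± 0.186 and 0.536 ± 0.0993 in bone marrow-derived cells. No test was run on the ratios.

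**Figure D4:**
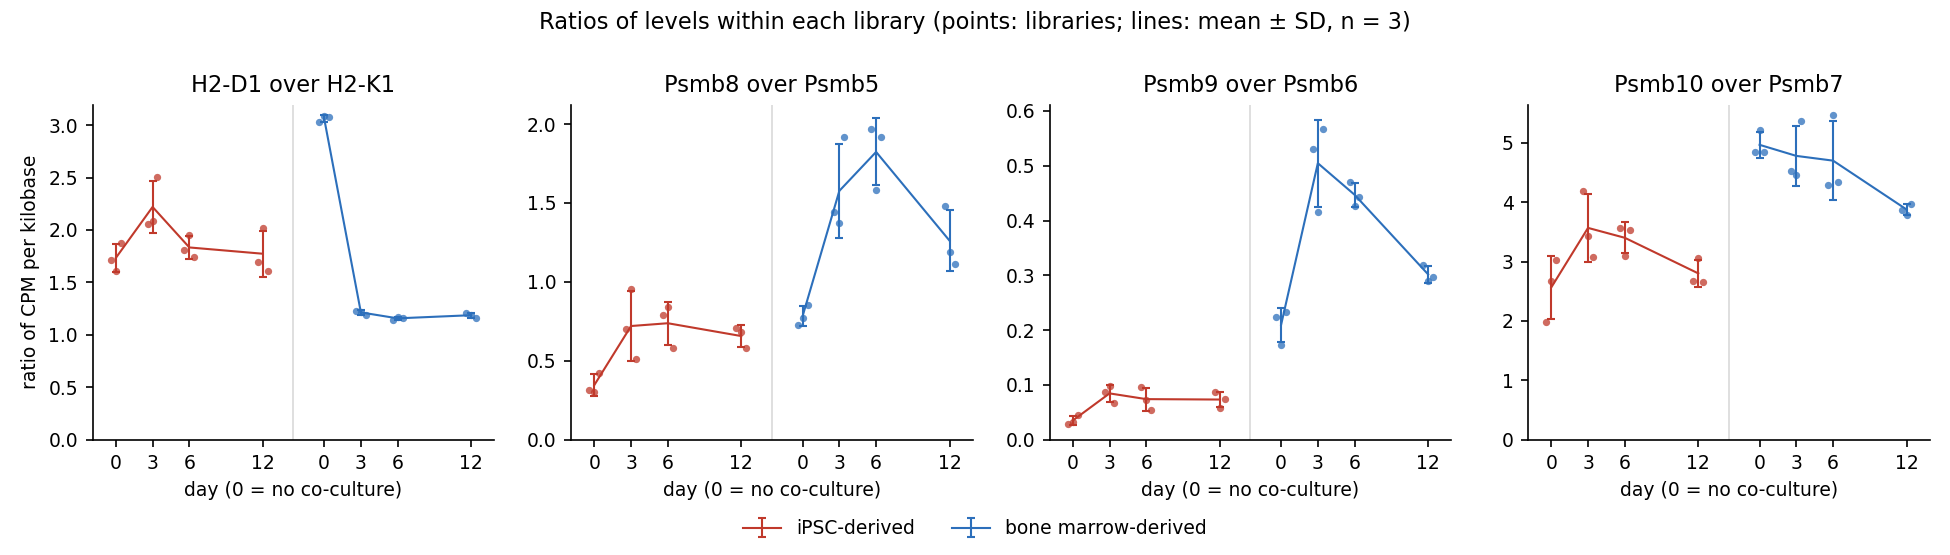
Ratios of class I and proteasome genes within each library by day, on levels per kilobase of exon, for iPSC-derived and bone marrow-derived macrophages, with 1 point a library and lines through the means ± SD of 3 libraries. H2-D1 over H2-K1 in bone marrow-derived cells stands at 1.21 at day 3, against 3.07 at day 0.

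Sequence sharing limits some of these counts. Reads that map to several places were not counted. On either strand, 51-base stretches also found in another gene made up 9.22% of those of H2-K1, 12.2% of H2-D1, 14% of H2-T23, 11.5% of Tap2, 11.8% of Psmb8 and 23% of Tapbp, against 0 in B2m and 0.327% in Nlrc5. Genes that overlap the member count here: Gm19412 shared 20.2% with Tapbp, Gm20496 11.5% with Psmb8 and Gm15821 9.11% with Tap2. A stretch shared with an overlapping gene can lie at a single place, so these shares do not measure reads with several places. Tap1 and Psmb9 overlap by 212 exonic bases on opposite strands, and Tapbp and the gene Gm19412 by 665. The counting used no strand and dropped reads that lie in more than 1 gene. Reads of both sources were aligned to the mm10 reference, and the strain of neither source is stated. Whether sequence differences between the sources altered the mapping of H2 gene reads was not tested, so it cannot be told apart from a difference in level.

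Other class I heavy chain genes gave 9 tested genes of 10 listed. At day 3, 1 rose and 0 fell in iPSC-derived cells (11.2% higher and 8.14% lower among all genes), which is near the share of all genes, and 5 rose and 0 fell in bone marrow-derived cells (11.9% higher and 6.61% lower among all genes). At day 12, 0 rose and 3 fell in iPSC-derived cells (14% higher and 10.7% lower among all genes), and 4 rose and 1 fell in bone marrow-derived cells (14.7% higher and 9.08% lower among all genes). H2-Q7 averaged 103 ± 17.2 CPM at day 3 in bone marrow-derived cells, against 1.63 ± 0.765 at day 0 (SD, n = 3 each; log2 fold change 5.96 ± 0.57 SE, edgeR adjusted p = 5.9e-08). H2-Q6 had 95.4 ± 17.9 CPM at day 3 against 0.357 ± 0.414 at day 0 (7.95 ± 0.76), and 1 of its day 0 libraries held no count, with 9 counts over the 3, so the size of this change depends on few reads. H2-M3, which presents formylated peptides, rose (1.62 ± 0.14 SE, edgeR adjusted p = 8.3e-09), as did H2-T22 (1.55 ± 0.16). In iPSC-derived cells H2-T22 fell at day 6 (-0.94 ± 0.16) and day 12 (-1.02 ± 0.16). H2-Q6 and H2-Q7 are near copies of each other, and their split is uncertain.

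Of 11 other loading and processing genes, 1 rose and 2 fell in iPSC-derived cells at day 3 (11.2% higher and 8.14% lower among all genes), and 2 rose and 2 fell in bone marrow-derived cells (11.9% higher and 6.61% lower among all genes). The shares that rose are near those of all genes. Erap1, an aminopeptidase that trims peptides in the endoplasmic reticulum, rose at day 3 in iPSC-derived cells (0.60 ± 0.18 SE, edgeR adjusted p = 0.020) and in bone marrow-derived cells (0.83 ± 0.18 SE, edgeR adjusted p = 0.0016). The chaperone gene Calr fell at day 3 in iPSC-derived cells (-0.56 ± 0.19 SE, edgeR adjusted p = 0.036) and in bone marrow-derived cells (-1.06 ± 0.19 SE, edgeR adjusted p = 1.9e-04). By day 12 Calr was above day 0 in bone marrow-derived cells (0.55 ± 0.19 SE, edgeR adjusted p = 0.033). In iPSC-derived cells it was not called at days 6 and 12. All 3 constitutive catalytic proteasome genes fell in iPSC-derived cells at days 3, 6 and 12 (8.14%, 11% and 10.7% lower among all genes), and none of them was called in bone marrow-derived cells at any of these days. Psmb6 had 274 ± 106 CPM at day 3 against 594 ± 56 at day 0 in iPSC-derived cells (-1.12 ± 0.29 SE, edgeR adjusted p = 0.0075), Psmb5 fell by 0.90 ± 0.28 and Psmb7 by 0.71 ± 0.24 log2 units.

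Among 20 interferon response genes, those called from day 0 were all lower in iPSC-derived cells and nearly all higher in bone marrow-derived cells. In iPSC-derived cells 0 rose, and 7, 14 and 13 fell at days 3, 6 and 12, where 8.14%, 11% and 10.7% of all genes were lower, so 13 of the 20 did not pass at day 3. Among bone marrow-derived cells 16 rose and 0 fell at day 3 and again at day 6. By day 12, 15 rose and 2 fell. Among all genes at days 3, 6 and 12, 11.9%, 12.7% and 14.7% were higher and 6.61%, 6.89% and 9.08% were lower. The interaction was negative and called for 17, 19 and 18 of the 20 at days 3, 6 and 12, against 11.5%, 11.1% and 11% of all genes. At day 0, 15 of the 20 were higher and 1 lower in iPSC-derived than in bone marrow-derived cells (18.9% higher and 17.1% lower among all genes). Oasl1, an interferon-induced antiviral gene, fell in iPSC-derived cells at day 3 (-3.17 ± 0.31 SE, edgeR adjusted p = 5.9e-08) and rose in bone marrow-derived cells (5.45 ± 0.41 SE, edgeR adjusted p = 6.6e-10). Rsad2, which encodes viperin, averaged 189 ± 36.8 CPM at day 3 against 689 ± 158 at day 0 in iPSC-derived cells (SD, n = 3 each; -1.87 ± 0.28 SE, edgeR adjusted p = 3.4e-05). Among the class I members at day 0, 1 was higher and 6 were lower. Ifng, the gene of interferon gamma, had 1 count in all 24 libraries, in a bone marrow-derived day 12 one. T cell and natural killer cell markers summed to at most 1.39 CPM in any library.

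Markers of other cells differed between groups too. Summed levels of 12 neuron markers were 1.71 to 3.39 CPM at day 0, 23.4 to 56 at day 3, 28 to 54.8 at day 6 and 15.4 to 31.1 at day 12 in iPSC-derived libraries. In bone marrow-derived libraries they were 1.29 to 3.01 CPM at day 0, 52 to 68.9 at day 3, 33.1 to 58.2 at day 6 and 23.5 to 30.9 at day 12. At day 0, 4 of the 12 were at 0 in each source, Nefl and Nefm among them in both, and the sums were higher in every co-cultured library. Summed levels of 10 fibroblast markers were 8.64 to 40.7 CPM at day 0, 61.2 to 146 at day 3, 498 to 932 at day 6 and 527 to 708 at day 12 in iPSC-derived libraries. Those of bone marrow-derived libraries were 1.56 to 21.4 CPM at day 0, 36.1 to 46.5 at day 3, 50.2 to 77.8 at day 6 and 159 to 275 at day 12, with Thy1 at 0 at all 4 days. Fibroblast markers stood above the bone marrow-derived range of the same day in all iPSC-derived co-cultures. Summed levels of 9 microglia markers were 1460.0 to 1800.0 CPM at day 0, 5440.0 to 9830.0 at day 3, 7710.0 to 9610.0 at day 6 and 6080.0 to 9670.0 at day 12 in iPSC-derived libraries. The bone marrow-derived libraries had 896 to 1020.0 CPM at day 0, 1680.0 to 2050.0 at day 3, 4490.0 to 4750.0 at day 6 and 6620.0 to 7070.0 at day 12. Astrocyte markers, 9 in all, summed to 26.3 to 49.5 CPM at day 0, 16.7 to 30.7 at day 3, 43.5 to 71.4 at day 6 and 86.0 to 94.6 at day 12 in iPSC-derived libraries. In bone marrow-derived libraries they summed to 14.7 to 22.6, 28.8 to 45.3, 35.0 to 58.2 and 55.7 to 76.6 CPM. The sums of 10 oligodendrocyte markers were 143 to 169 CPM at day 0 and 175 to 325 at day 12 in iPSC-derived libraries. For bone marrow they were 135 to 140 and 180 to 240 CPM. The part of these cells' RNA in the results on class I genes was not tested.

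The 10 genes outside the members whose group means across the 8 groups were most like the mean profile of the members were taken from the 6550 genes with a mean of at least 20 CPM, by Pearson's r. They were Ptprc (r = 0.994), Fgl2 (0.981), H2-M3 (0.977), Sirpb1c (0.977), Lnpep (0.965), Pfkfb4 (0.965), Ifi47 (0.961), Sdc3 (0.961), Pcnx (0.96) and Ms4a4c (0.954). Ptprc encodes the leukocyte antigen CD45 and is also among the macrophage markers, and 2 of the 10, H2-M3 and Lnpep, are in the lists of the pathway used here. The correlation of a member with the mean profile ran from 0.799 for B2m to 0.99 for H2-K1. These r are descriptions over 8 group means.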

How the data were processed

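The authors deposited whole-number read counts per gene for 24 libraries. Per the file header, featureCounts 1.5.0-p1 counted read pairs over GENCODE vM9 exons without strand, leaving out reads with several places or genes. Per the submitters' processing notes, STAR aligned reads to mm10 (GRCm38). Groups came from the labels. edgeR 4.0.16 (R 4.3.3) tested the counts: filterByExpr (minimum count 10, minimum total 15), TMM scaling, 1 quasi-likelihood fit of 24 libraries, 15 contrasts, Benjamini-Hochberg adjustment over 15000 genes, calls below 0.05. Alternatives were RLE scaling, no scaling factors, no filter, DESeq2 1.42.0, only the groups compared, a replicate block and each library left out. Rows with no gene symbol held 0.0635% of counts. All members were named, with values per library for the 8 called most often and ranges for B2m and Psmb9, and of other lists at most 4 called genes a direction with the lowest adjusted p. The members and lists were chosen with earlier results of these data known. A result on 1 other gene is not reported here. Promoters are RefSeq's (C57BL/6J). Python 3.11.15, pandas 2.3.3 and matplotlib 3.10.9 made tables and figures.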

Additional observations from a re-analysis of the deposited data

Results flagged for a closer look

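The change from day 0 differed between the 2 sources by the interaction test in 18 member results (edgeR, iPSC change minus bone marrow change, log2 units, adjusted over 15000 genes). For H2-K1 it was -1.36 at day 3, -1.64 at day 6 and -0.87 at day 12. Tap1 had -2.04, -2.27 and -2.22. Psmb8 had -1.32, -1.41 and -0.97, and Nlrc5 -1.54, -1.67 and -1.60. H2-T23 differed at day 3 (-0.85) and day 6 (-1.33), as did Tap2 (-0.91 and -0.85). At day 12, H2-D1 (0.53) and Tapbp (0.85) differed the other way. Groups of 3 libraries are too small for a test of single outlying libraries, and every column of the table was used.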

How the results depend on the processing

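Of 150 member results, 85 were called. Over the 6 alternatives and each left-out library, 1086 of 1128 values of called results kept their direction and call, 42 kept only their direction and 0 turned. The 65 not called turned sign in 57 of 852 values, none of them called, and gained a call in 54. The count of members called in iPSC-derived cells at day 6 was 0 with no filter on low counts, 0 in a fit of only the groups compared and 0 to 2 with 1 library left out, against 1. At day 12 against day 0 in iPSC-derived cells it was 0 in a fit of only the groups compared, against 3. At day 12 against day 3 in bone marrow-derived cells it was 5 with no filter, 5 with DESeq2 and 7 in a fit of only the groups compared, against 3. With 1 library left out the counts of members called ran 2 to 4 for iPSC day 3 vs day 0, 0 to 2 for iPSC day 6 vs day 0, 2 to 4 for iPSC day 12 vs day 0, 5 to 6 for iPSC vs BM day 0, 6 to 7 for interaction day 3 vs day 0, 5 to 7 for interaction day 6 vs day 0, 5 to 7 for interaction day 12 vs day 0, 2 to 3 for iPSC day 12 vs day 3, 9 to 9 for iPSC vs BM day 3, 9 to 9 for iPSC vs BM day 6, 8 to 9 for iPSC vs BM day 12, 9 to 9 for BM day 3 vs day 0, 6 to 6 for BM day 6 vs day 0, 6 to 6 for BM day 12 vs day 0, 3 to 3 for BM day 12 vs day 3. A fit with the replicate block called 7 members at day 6 in bone marrow-derived cells, where 6 were reported, 4 at day 12 against day 3 in those cells, where 3 were reported, and 7 in each interaction, where 6 were reported; it changed no other call. Replicate numbers were not taken to pair the libraries, since nothing in the labels says so and not every same-numbered correlation of deviations was over 0.1. These were -0.0545 to 0.161 in iPSC-derived cells, with 4 of 18 over 0.1, and -0.0209 to 0.0397 in bone marrow-derived cells, with 0 of 18. In iPSC-derived cells 8 of 12 libraries, and in bone marrow-derived cells 9 of 12, correlated best with their own number, a hint of pairing from the data and not from the design. With no scaling factors the median change of all genes moved by -0.179 at day 3 and -0.116 at day 12 in iPSC-derived cells, 0.133 at day 6 and 0.172 at day 12 in bone marrow-derived cells, -0.198, -0.104 and -0.223 between sources at days 3, 6 and 12, and -0.27, -0.178 and -0.296 in the interactions. Results near 0, not called in either fit, changed sign as follows, with the reported value in brackets. With RLE scaling, these were 0.0215 for Nlrc5 iPSC day 12 vs day 0 (-0.00708), 0.0179 for Tapbp BM day 6 vs day 0 (-0.00768), 0.0139 for H2-T23 BM day 12 vs day 0 (-0.00928). With no scaling factors, these were -0.0856 for H2-T23 iPSC day 3 vs day 0 (0.112), -0.129 for Psmb8 iPSC day 3 vs day 0 (0.0628), -0.0827 for Psmb9 iPSC day 3 vs day 0 (0.109), -0.108 for B2m iPSC day 12 vs day 0 (0.0139), 0.00361 for Tap2 iPSC day 12 vs day 3 (-0.0668), 0.104 for H2-D1 BM day 6 vs day 0 (-0.0310), 0.126 for Tapbp BM day 6 vs day 0 (-0.00768), 0.161 for H2-T23 BM day 12 vs day 0 (-0.00928), 0.0563 for Nlrc5 iPSC vs BM day 0 (-0.0145). With no filter on low counts, these were 0.0210 for Nlrc5 iPSC day 12 vs day 0 (-0.00708), 0.000867 for H2-D1 BM day 6 vs day 0 (-0.0310), 0.0249 for Tapbp BM day 6 vs day 0 (-0.00768). With DESeq2, these were 0.0216 for Nlrc5 iPSC day 12 vs day 0 (-0.00708), 0.0180 for Tapbp BM day 6 vs day 0 (-0.00768), 0.0138 for H2-T23 BM day 12 vs day 0 (-0.00928). In a fit of only the groups compared, these were 0.0347 for Nlrc5 iPSC day 12 vs day 0 (-0.00708), 0.0104 for Tapbp BM day 6 vs day 0 (-0.00768), 0.0107 for H2-T23 BM day 12 vs day 0 (-0.00928). With the replicate block, these were -0.0323 for B2m iPSC day 12 vs day 0 (0.0139), 0.00812 for Nlrc5 iPSC day 12 vs day 0 (-0.00708). With 1 library left out the uncalled values that turned ran -0.0413 to 0.258 for Psmb8 iPSC day 3 vs day 0, -0.0665 to 0.247 for Psmb9 iPSC day 3 vs day 0, -0.128 to 0.418 for B2m iPSC day 6 vs day 0, -0.396 to 0.0589 for Psmb8 iPSC day 6 vs day 0, -0.0888 to 0.522 for Nlrc5 iPSC day 6 vs day 0, -0.160 to 0.0129 for H2-T23 iPSC day 12 vs day 0, -0.0799 to 0.142 for B2m iPSC day 12 vs day 0, -0.233 to 0.198 for Nlrc5 iPSC day 12 vs day 0, -0.101 to 0.198 for Psmb8 iPSC vs BM day 0, -0.219 to 0.211 for Nlrc5 iPSC vs BM day 0, -0.164 to 0.0229 for H2-T23 interaction at day 12, -0.150 to 0.0741 for Tap2 iPSC day 12 vs day 3, -0.234 to 0.246 for Tapbp iPSC day 12 vs day 3, -0.0149 to 0.129 for Psmb8 iPSC day 12 vs day 3, -0.457 to 0.0225 for Tapbp iPSC vs BM day 12, -0.0867 to 0.0272 for H2-D1 BM day 6 vs day 0, -0.0331 to 0.0408 for Tapbp BM day 6 vs day 0, -0.0880 to 0.107 for H2-T23 BM day 12 vs day 0. The cause was not tested. Libraries were 3 a group, and the calls that left-out libraries ended are given with the results.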

Other observations

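Of 20 regulators of class I transcription, 4 rose and 1 fell in iPSC-derived cells at day 3 (11.2% higher and 8.14% lower among all genes), 4 rose and 1 fell at day 6 (14.3% higher and 11% lower among all genes), and 4 rose and 3 fell at day 12 (14% higher and 10.7% lower among all genes). In bone marrow-derived cells 6, 4 and 2 rose at days 3, 6 and 12, where 11.9%, 12.7% and 14.7% of all genes were higher. At these days 0 fell, where 6.61%, 6.89% and 9.08% of all genes were lower. The iPSC-derived shares at day 6 are near those of all genes. The bone marrow-derived share that rose at day 12 is not above that of all genes. Of 9 interferon receptor and signalling genes tested, 4 rose and 1 fell in each source at day 3. Among all genes, 11.2% were higher and 8.14% lower in iPSC-derived cells, and 11.9% higher and 6.61% lower in bone marrow-derived cells. The shares that fell are near those of all genes. Irf8, a transcription factor of macrophages and of interferon response, rose in iPSC-derived cells at day 3 (1.62 ± 0.18 SE, edgeR adjusted p = 2.5e-07), day 6 (1.24 ± 0.17) and day 12 (1.25 ± 0.17). Ifngr1, a chain of the interferon gamma receptor, rose in iPSC-derived cells at day 3 (1.56 ± 0.14 SE, edgeR adjusted p = 1.4e-08), with 601 ± 59.4 CPM against 203 ± 20.1 at day 0 (SD, n = 3 each). Bone marrow-derived cells had 883 ± 97 CPM at day 3 against 627 ± 33.8 at day 0 (0.49 ± 0.14 SE, edgeR adjusted p = 0.012). Usp18, a brake on type I interferon signalling, fell in iPSC-derived cells (-1.73 ± 0.25 SE, edgeR adjusted p = 1.7e-05) and rose in bone marrow-derived cells (2.81 ± 0.27 SE, edgeR adjusted p = 4.1e-08) at day 3. Irf1, a transcription factor induced by interferon gamma, was lower in iPSC-derived than in bone marrow-derived cells at day 0 (-1.17 ± 0.17 SE, edgeR adjusted p = 8.0e-06) and day 12 (-1.21 ± 0.17).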
